A study of Mus musculus with 10 samples.

Results

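The genes described are 10 that encode cytosolic chaperones of the heat shock response: the HSP70 genes Hspa8, Hspa1a, Hspa1b and Hspa2, the HSP110 relatives Hspa4, Hspa4l and Hsph1, the small heat shock genes Hspb1 and Hspb8, and the cochaperone gene Bag3. They were chosen by symbol, with earlier results of these data known, from a count table of 57010 genes. All 10 were present and passed the filter on low counts. RNA was sequenced from the retinas of mice aged 6 to 8 weeks, 14 days after a vector was placed in the vitreous. Adeno-associated virus (AAV) with a green fluorescent protein (GFP) reporter was given in the AAV2 capsid (AAV2-GFP, 5 libraries) or in the AAV206 capsid (AAV206-GFP, 5 libraries). The GFP reporter and the injection were thus common to both groups. Each library is taken here as a separate mouse. The mouse strain, the sex and the promoter of the vector were not given in the sources used here. Uninjected retinas were not analysed here, so a decrease under AAV206-GFP and an increase under AAV2-GFP cannot be told apart. Below, a gene that fell or rose is one lower or higher with AAV206-GFP than with AAV2-GFP. The series' title describes the capsid under study as directed at the retinal pigment epithelium. The total count per library ranged from 10989843 to 12752604, and the summed level of 8 markers of Müller glia, the main glia of the retina, was between 3159 and 4332 CPM (the count scaled to the library size) in every library, and none of the 8 was absent.

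HSP70 proteins bind exposed hydrophobic stretches of unfolded proteins and release them in a cycle driven by ATP. HSP40 cochaperones start that cycle, and HSP110 and BAG proteins exchange the nucleotide that ends it. Small heat shock proteins hold unfolded proteins without ATP until HSP70 takes them over. Heat shock factor 1 (HSF1) turns on the inducible members during proteotoxic stress by binding heat shock elements, repeats of the unit GAA in alternating orientation, whereas the constitutive members are transcribed in unstressed cells. By textbook knowledge Hspa1a, Hspa1b, Hsph1, Hspb1, Hspb8 and Bag3 were placed in the inducible class, and Hspa8, Hspa4, Hspa4l and Hspa2 in the constitutive class. In photoreceptors HSC70, the product of Hspa8, is known for uncoating clathrin-coated vesicles and for folding newly made proteins.

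Promoters are shown of the 4 inducible genes that fell with AAV206-GFP, with those of Bag3, inducible but not called, and Hspa4, constitutive and called, beside them, so that the letters of heat shock elements can be read against the values. RefSeq promoters (build GRCm38.p6) matched 9 of the 10 genes, and Hspa8 had no entry. The 250 bases before the start were searched on both strands for the elements GAANNTTC and TTCNNGAA, each of 2 units, and for the same extended by NN and 1 more alternating unit, which hold both shorter ones. In the sequences, capitals mark a match to an element of 2 units.
Hspa1a, chr17:34972157-34972406, minus strand: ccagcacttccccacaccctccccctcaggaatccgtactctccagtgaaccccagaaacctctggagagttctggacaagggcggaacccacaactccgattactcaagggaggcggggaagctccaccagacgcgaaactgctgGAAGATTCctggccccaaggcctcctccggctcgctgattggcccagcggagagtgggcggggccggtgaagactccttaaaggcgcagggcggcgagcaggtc
Hspa1b, chr17:34959239-34959488, minus strand: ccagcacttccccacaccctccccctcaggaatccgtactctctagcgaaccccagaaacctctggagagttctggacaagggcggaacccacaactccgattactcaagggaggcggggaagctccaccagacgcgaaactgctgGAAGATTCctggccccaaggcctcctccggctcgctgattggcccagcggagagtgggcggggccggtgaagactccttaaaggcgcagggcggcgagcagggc
Hsph1, chr5:149636337-149636586, minus strand: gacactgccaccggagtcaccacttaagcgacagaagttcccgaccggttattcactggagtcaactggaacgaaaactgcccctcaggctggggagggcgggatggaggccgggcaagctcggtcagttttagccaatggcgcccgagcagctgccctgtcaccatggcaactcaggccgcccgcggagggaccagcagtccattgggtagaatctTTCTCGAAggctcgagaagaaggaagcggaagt
Hspb1, chr5:135887669-135887918, plus strand: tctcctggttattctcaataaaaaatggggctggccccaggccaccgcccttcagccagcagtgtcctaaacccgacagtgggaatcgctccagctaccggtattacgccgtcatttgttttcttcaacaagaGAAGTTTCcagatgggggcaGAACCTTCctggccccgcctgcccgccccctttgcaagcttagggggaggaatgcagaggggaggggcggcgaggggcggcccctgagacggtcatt
Bag3, chr7:128523333-128523582, plus strand: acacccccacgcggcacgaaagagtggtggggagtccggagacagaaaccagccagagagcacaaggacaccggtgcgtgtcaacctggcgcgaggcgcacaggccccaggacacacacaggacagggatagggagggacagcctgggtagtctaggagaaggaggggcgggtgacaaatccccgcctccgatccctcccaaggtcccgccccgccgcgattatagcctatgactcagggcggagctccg
Hspa4, chr11:53300480-53300729, minus strand: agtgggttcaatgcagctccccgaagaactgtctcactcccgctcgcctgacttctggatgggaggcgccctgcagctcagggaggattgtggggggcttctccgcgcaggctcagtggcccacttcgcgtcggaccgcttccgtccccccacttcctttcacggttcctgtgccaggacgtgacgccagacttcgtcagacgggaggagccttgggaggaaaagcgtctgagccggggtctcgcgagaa
An element of 2 units was found for 4 of the 9 genes, Hspa1a, Hspa1b, Hsph1 and Hspb1. Among 27025 genes with a promoter window of this length the share was 14.5%. An element of 3 units was found for none of the 9, against 0.514%. Counted by window, the shares were 12.8% and 0.466% of 32851. Both backgrounds leave out 1 chromosome, which holds none of the 9 genes. The match lay 104 bases before the start in both Hspa1a and Hspa1b, whose windows were identical at 247 of 250 positions. In Hspb1 2 matches began 117 and 97 bases before the start, and in Hsph1 1 match began 33 bases before the upstream of its 2 listed starts. The windows of Hspa4, Hspa4l, Hspa2, Hspb8 and Bag3 held none of these letters. Elements with imperfect units, or outside the window, were not searched.

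In the comparison of the vectors 6 of the 10 genes were lower with AAV206-GFP, namely Hspa8, Hspa1a, Hspa1b, Hsph1, Hspb1 and Hspa4. The test was edgeR's quasi-likelihood test with Benjamini-Hochberg adjustment over 15539 genes, of which 11.2% passed at an adjusted p under 0.05, with 5.30% of all tested genes lower and 5.95% higher. None of the 10 passed as higher with edgeR, DESeq2 or limma-voom, and at an unadjusted p under 0.05 edgeR placed 1, Hspa4l, as higher. The fall covered 4 of the 6 inducible and 2 of the 4 constitutive genes. The median log2 fold change was -0.66 over the inducible and -0.19 over the constitutive genes, against -0.0095 over all tested genes. In each of the 6 genes that fell, every AAV206-GFP mouse was below every AAV2-GFP mouse, a pattern seen in this direction in 4.36% of all tested genes (5.41% in the other direction, 9.78% in either). In bulk tissue, fewer cells of a type and less RNA per cell cannot be told apart.

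**Figure D1:**
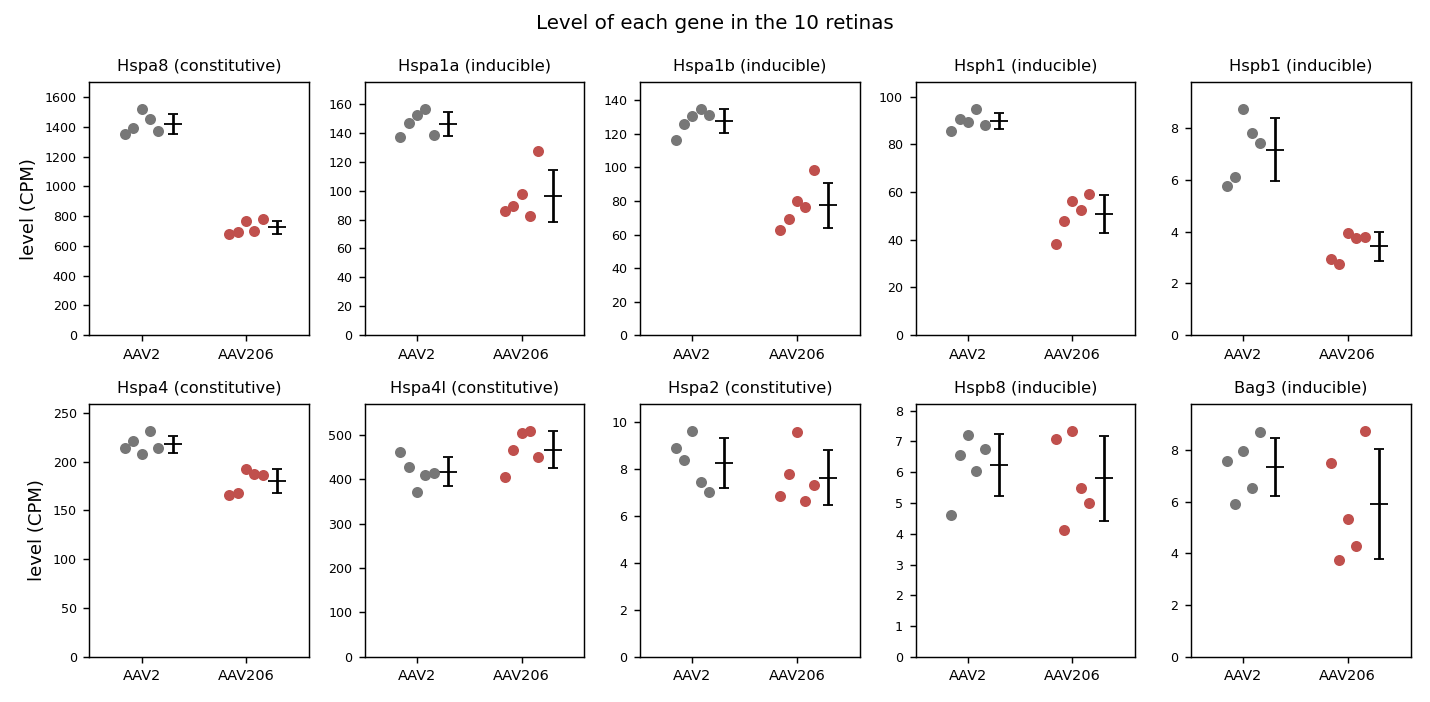
Level of the 10 genes in every retina, in CPM on linear axes that start at 0, with 5 AAV2-GFP mice in grey and 5 AAV206-GFP mice in red, in the order of their replicate numbers; bars give the mean and SD of each group. The groups are separate for Hspa8, Hspa1a, Hspa1b, Hsph1, Hspb1 and Hspa4 and overlap for Hspa4l, Hspa2, Hspb8 and Bag3.

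Hspa8 (ENSMUSG00000015656, chromosome 9, 40800984 to 40810087 in GENCODE M21 on GRCm38, plus strand, 9 exons in the transcript used) encodes the constitutive cytosolic HSP70. Its level in AAV2-GFP replicates 1 to 5 was 1355, 1390, 1518, 1455 and 1375 CPM, and in AAV206-GFP replicates 1 to 5 it was 682, 695, 767, 700.4 and 781 CPM. The lowest AAV2-GFP mouse thus stood well above the highest AAV206-GFP mouse. The group means were 1418 ± 67.1 and 725 ± 45.2 CPM (SD, n = 5). On the log2 scale the difference was -0.97 (SE 0.06, 95% interval -1.09 to -0.85, edgeR adjusted p = 7.53e-08). By p-value it ranked number 3 of the 15539 genes. Hspa8 alone made up 0.135% to 0.154% of all counts in the AAV2-GFP libraries and 0.0688% to 0.0766% in the AAV206-GFP libraries.

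Hspa1a (ENSMUSG00000091971) and Hspa1b (ENSMUSG00000090877) encode the stress-inducible HSP70 and are near-identical neighbours without introns on the minus strand of chromosome 17, at 34969190 to 34972156 and 34956436 to 34959238. Hspa1a stood at 137, 147, 152, 156 and 139 CPM in AAV2-GFP replicates 1 to 5 and at 86.2, 89.5, 97.5, 82.2 and 127 CPM in AAV206-GFP replicates 1 to 5. Hspa1b stood at 116, 126, 131, 135 and 131 CPM and at 62.8, 69.0, 79.8, 76.3 and 98.7 CPM in the same order. In both genes AAV206-GFP replicate 5 was the highest of its group and came nearest to the AAV2-GFP mice. The log2 fold change was -0.60 (SE 0.10) for Hspa1a (edgeR adjusted p = 0.00123) and -0.72 (SE 0.10) for Hspa1b (edgeR adjusted p = 0.000211). With both rows summed before the test, as suits reads that cannot be placed, it was -0.66 (SE 0.09, edgeR adjusted p = 0.000429).

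Hsph1 (ENSMUSG00000029657, chromosome 5, 149614287 to 149636376, minus strand), which encodes the inducible HSP110 that recharges HSP70 with ATP, had whole counts in every library. It was at 85.4, 90.6, 89.6, 94.7 and 88.2 CPM in AAV2-GFP replicates 1 to 5 and at 38.3, 48.0, 56.1, 52.6 and 59.1 CPM in AAV206-GFP replicates 1 to 5. The AAV2-GFP mice lay close together, with an SD of 3.40 CPM around a mean of 89.7, while the AAV206-GFP mice had an SD of 8.14 around 50.8. The log2 fold change was -0.82 (SE 0.09, 95% interval -1.02 to -0.62, edgeR adjusted p = 4.99e-05).

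Hspb1 (ENSMUSG00000004951, chromosome 5, 135887919 to 135889563, plus strand, 2 exons) encodes the small heat shock protein HSP25, the mouse counterpart of human HSP27. Its level was low, at 5.79, 6.11, 8.74, 7.82 and 7.43 CPM in AAV2-GFP replicates 1 to 5 and at 2.94, 2.74, 3.97, 3.77 and 3.82 CPM in AAV206-GFP replicates 1 to 5. These levels rested on counts of 64 to 113.34 and of 29.95 to 46 per library, so its interval was wide. Its log2 fold change was -1.06 (SE 0.18, 95% interval -1.44 to -0.67, edgeR adjusted p = 0.00170). The interval holds the value of Hspa8, so the order of these 2 falls is not resolved. The 10 lens markers, with the crystallin and small heat shock gene Cryaa among them, summed to 16.7 to 38.1 CPM with AAV2-GFP and 2.14 to 19.5 CPM with AAV206-GFP. All 10 lens markers had more than 3 counts in at least 1 library, and the part of lens tissue in the level of Hspb1 was not tested.

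Hspa4 (ENSMUSG00000020361, chromosome 11, 53259814 to 53300457, minus strand), a constitutive HSP110 relative, fell by less. It was at 213, 221, 208, 231 and 214 CPM in AAV2-GFP replicates 1 to 5 and at 166, 168, 193, 187 and 187 CPM in AAV206-GFP replicates 1 to 5. The groups did not overlap, but they were separated by a gap smaller than the range of either group. Its log2 fold change was -0.27 (SE 0.06, edgeR adjusted p = 0.00981). Without AAV2-GFP replicates 1 and 4, an alternative chosen after the data were seen, it was -0.26 and no longer passed (edgeR adjusted p = 0.0564).

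The other 4 genes did not pass, and their intervals are the limit of what can be said of them. Hspa4l (ENSMUSG00000025757, chromosome 3), the HSP110 relative also known as Osp94, was at 460, 429, 371, 411 and 415 CPM in AAV2-GFP replicates 1 to 5 and at 406, 466, 505, 508 and 450.1 CPM in AAV206-GFP replicates 1 to 5. Its log2 fold change was 0.16 with a 95% interval of 0.01 to 0.32 (edgeR adjusted p = 0.154). That interval lies wholly above those of Hspa4 and Hsph1, its closest relatives, although the difference between the genes was not tested. Hspa2 (ENSMUSG00000059970, chromosome 12), the HSP70 of spermatocytes, ranged over 7.01 to 9.59 CPM in the AAV2-GFP mice and over 6.64 to 9.57 CPM in the AAV206-GFP mice, with a log2 fold change of -0.12 and an interval of -0.43 to 0.20 (edgeR adjusted p = 0.650). Without AAV206-GFP replicate 3 Hspa2 was at -0.21, and without AAV2-GFP replicate 3 at -0.05.

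Hspb8 and Bag3, whose products act as a complex that sends damaged proteins to autophagy, were both low and scattered. Hspb8 (ENSMUSG00000041548, chromosome 5) ranged over 4.61 to 7.19 CPM in the AAV2-GFP mice and over 4.10 to 7.33 CPM in the AAV206-GFP mice, with a log2 fold change of -0.10 and an interval of -0.51 to 0.30 (edgeR adjusted p = 0.755). Bag3 (ENSMUSG00000030847, chromosome 7) was at 7.59, 5.93, 7.97, 6.53 and 8.71 CPM in AAV2-GFP replicates 1 to 5 and at 7.49, 3.74, 5.35, 4.31 and 8.73 CPM in AAV206-GFP replicates 1 to 5. Its AAV206-GFP mice split into 2 at the AAV2-GFP level and 3 below every AAV2-GFP mouse. The log2 fold change was -0.31 with an interval of -0.77 to 0.15 (edgeR adjusted p = 0.375), which does not exclude a fall as large as that of Hspa1a. Single libraries moved both values: Bag3 was at -0.18 without AAV206-GFP replicate 2 and at -0.49 without AAV206-GFP replicate 5, and Hspb8 ranged from -0.20 without AAV206-GFP replicate 3 to -0.0045 without AAV206-GFP replicate 2.

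**Figure D2:**
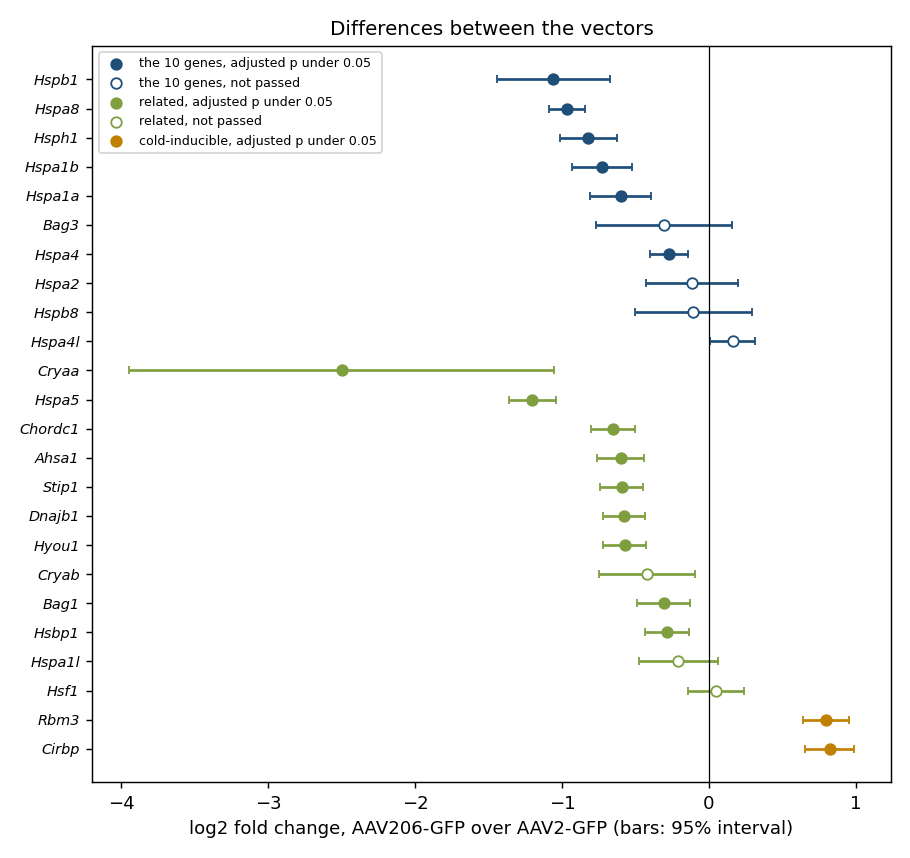
Log2 fold change of AAV206-GFP over AAV2-GFP with its 95% interval, for the 10 genes (blue), named genes of the related chaperone lists (green) and the cold-inducible genes (orange); filled points passed at an adjusted p under 0.05. Hspa8 at -0.97 and Hspb1 at -1.06 lie lowest among the 10, Hspa4l at 0.16 is the 1 above 0, and Cirbp and Rbm3 lie at 0.82 and 0.80.

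Per kilobase of transcript, Hspa8 was by far the most abundant of the 10 in both groups. The length was that of the longest protein-coding transcript in GENCODE's basic set. With AAV2-GFP Hspa8 was at 592 ± 28.0 CPM per kilobase, followed by Hspa1a at 49.3 ± 2.80, Hspa4 at 47.1 ± 1.92, Hspa1b at 45.6 ± 2.56 and Hspa4l at 44.0 ± 3.39 (SD, n = 5). Those 4 neighbours lay within each other's spread. Hsph1 was next at 23.6 ± 0.895, then Hspb1 at 7.72 ± 1.32, while Hspb8, Hspa2 and Bag3 lay between 2.87 and 3.43 CPM per kilobase and were not separated by their spread. With AAV206-GFP Hspa8 was at 303 ± 18.9, and Hspa4l was second at 49.3 ± 4.48, ahead of Hspa4 at 39.0 ± 2.65, Hspa1a at 32.5 ± 6.11 and Hspa1b at 27.6 ± 4.86. Hsph1 at 13.4 ± 2.14 and Hspb1 at 3.71 ± 0.605 followed, and the remaining 3 lay between 2.31 and 3.19 CPM per kilobase.

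The genes that carried decimals were those whose transcripts share sequence with other genes. RSEM, named in the submitters' processing notes, divides reads that fit several genes and so gives counts that are not whole. Hspa8, Hspa1a and Hspa1b had decimals in all 10 libraries and Hspb1 in 4, while Hspa2, Hspa4, Hspa4l, Hsph1, Hspb8 and Bag3 had whole counts throughout. In GENCODE M21 transcripts, 56.0% of the stretches of 150 bases (1 read) in Hspa8 also occurred in another gene, 46.0% of those in Hspa1a, 40.5% of those in Hspa1b and 36.6% of those in Hspb1. For the 6 genes with whole counts the share was 0%. The partner of Hspa1a and Hspa1b was mainly the other of the pair, and the partners of Hspb1 were the pseudogene Hsp25-ps1 and Gm9817, with at most 3.52 counts in any library.

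Of the 5 genes that share stretches with Hspa8, Gm26825 shared the most (49.3%). Its GENCODE M21 identifier was not in the count table, so it was not analysed here. Among the other 4 the one with most counts was the processed pseudogene Gm15459, whose mean count was 219 in the AAV2-GFP libraries and 93.7 in the others, a small part of the 7621.91 to 19626.64 counts of Hspa8 per library. When Hspa8, the Hspa1a and Hspa1b pair, and Hspb1 were each summed with every gene of the table sharing such a stretch, an alternative chosen after the data were seen, the log2 fold changes were -0.97, -0.63 and -1.03 (edgeR adjusted p = 6.76e-08, 0.000437 and 0.00198). Hspa1b took 46.6% ± 1.14 of the summed pair in AAV2-GFP mice and 44.5% ± 2.26 in AAV206-GFP mice (SD, n = 5). The difference was -2.12 percentage points (exact permutation test, two-sided, p = 0.0873, where 0.00794 is the smallest possible). Without AAV206-GFP replicate 4, at 48.1%, the difference was -3.02 with an exact permutation p of 0.00794. The split of reads from the stretches common to both genes is the estimator's.

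**Figure D3:**
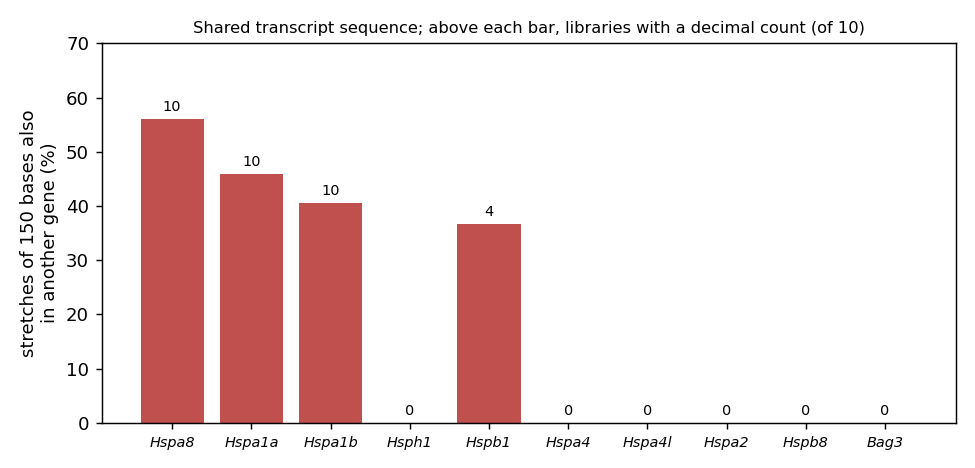
Share of the stretches of 150 bases in each gene's transcript that also occur in a transcript of another gene (percent, from 0), with the number of libraries of 10 in which the gene's count had decimals written above each bar. The 4 genes with shared stretches, between 36.6% and 56.0%, are the 4 with decimals.

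Among themselves, the 6 genes that fell also varied together within the groups. After the group means were taken out of log2(CPM + 1), Pearson's r over the 10 libraries was above 0 in all 15 pairs of them, with a median of 0.67 and a range of 0.39 to 0.88. Between these 6 and those of the 10 that did not pass, r ranged from -0.21 (Hspa1a with Hspa4l) to 0.57 (Hspa4 with Hspa4l). The 2 ranges overlap, and r over pairs of all tested genes was not computed. These values share the libraries and their scaling and are a description only. The 5 genes outside the 10 whose levels followed the mean standardised level of the inducible genes most closely over the 10 libraries were Serpinh1, which encodes the collagen chaperone HSP47 and is also on the list of HSF1 targets used here (r = 0.98), Lysmd4 (r = 0.98), Ube2ql1 (r = 0.97), Jun, an AP-1 transcription factor (r = 0.97), and Ruvbl2, an ATPase of chromatin remodelling and chaperone complexes (r = 0.96). With the group means taken out, r was between 0.87 and 0.91 for these 5. Since they were picked by r over the same libraries, these values follow in part from the choice. In the order given, their log2 fold changes were -0.46, -0.30, -0.38, -0.43 and -0.30. The direction follows from the choice, since the mean level of the inducible genes was itself lower in every AAV206-GFP mouse than in any AAV2-GFP mouse, and no test is given.

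Other genes of the chaperone network were counted from 6 lists with 56 genes, of which 50 were tested. With AAV206-GFP 21 of the 50 (42.0%) were lower and 1 was higher, against the 5.30% and 5.95% of all tested genes, and 28 did not pass. The lists were written with earlier results of these data known, so these shares are a description only. Of 14 HSP70 cochaperones 6 fell, 1 rose and 7 did not pass. The 1 that rose, named after its value was seen, was Sugt1, a partner of HSP90, at a log2 fold change of 0.22 (edgeR adjusted p = 0.0314). The smallest p-values were those of Stip1, which encodes the adaptor that passes clients from HSP70 to HSP90, at a log2 fold change of -0.59 (edgeR adjusted p = 6.42e-05), and of Dnajb1, the inducible HSP40 partner of HSP70, at -0.58 (edgeR adjusted p = 6.70e-05). Of 15 other HSF1 target genes 10 fell and 5 did not pass, and the smallest p-values were those of the HSP90 cochaperone genes Chordc1 at -0.65 (edgeR adjusted p = 3.44e-05) and Ahsa1 at -0.60 (edgeR adjusted p = 0.000137). The groups did not overlap in Stip1, Dnajb1, Chordc1 or Ahsa1, against 4.36% of all tested genes in this direction. Since these 4 were picked by their p-values, that separation follows in part from the choice.

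Among 8 further members of the HSP70 superfamily, the 2 that fell encode chaperones of the endoplasmic reticulum. Hspa5, which encodes BiP, had group means of 365 ± 10.3 and 159 ± 19.1 CPM (SD, n = 5) and a log2 fold change of -1.20 (SE 0.08, edgeR adjusted p = 9.89e-08). Hyou1, its HSP110-like partner, had group means of 119 ± 7.85 and 80.2 ± 6.46 CPM and a log2 fold change of -0.57 (edgeR adjusted p = 8.19e-05). The testis-type HSP70 gene Hspa1l, which shares 84 stretches of 150 bases with Hspa1a, was at a log2 fold change of -0.21 and did not pass (edgeR adjusted p = 0.300). Of 9 other small heat shock genes 4 were tested and 1 passed, the lens crystallin gene Cryaa at -2.50 (edgeR adjusted p = 0.0288), which passed in 5 of the 10 leave-one-out fits, each lacking 1 library. Without AAV206-GFP replicate 1 Cryaa was at -4.62, and its call was lost with DESeq2 (adjusted p = 0.0731) and with robust dispersions in edgeR (adjusted p = 0.124). Cryab, the crystallin gene also made by glia, was at -0.42 (edgeR adjusted p = 0.0851). Of 5 other BAG genes Bag1 passed at -0.31 (edgeR adjusted p = 0.0313), in 3 of the 10 leave-one-out fits.

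**Figure D4:**
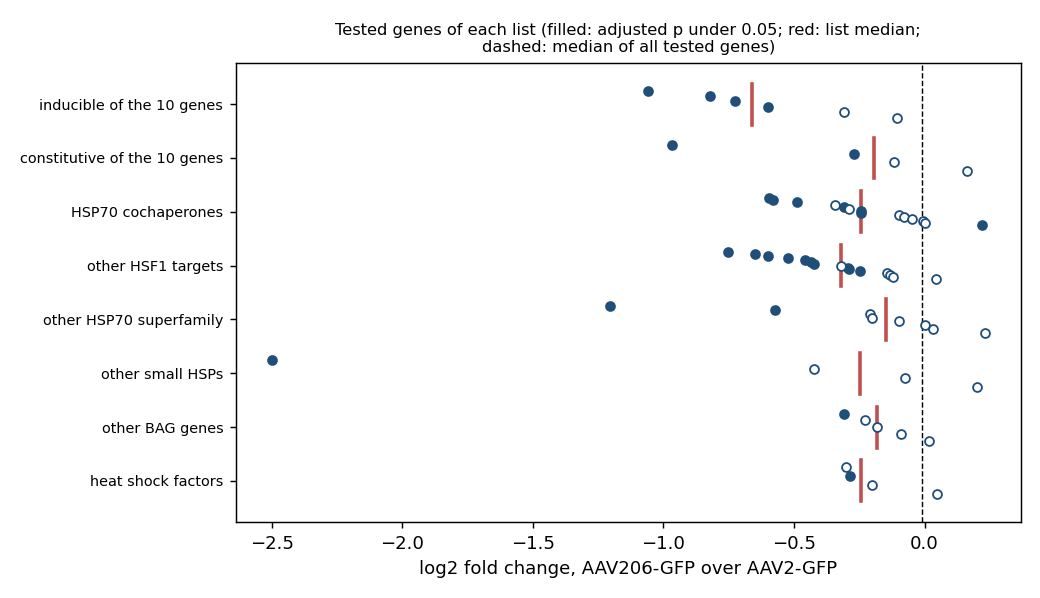
Log2 fold change of AAV206-GFP over AAV2-GFP for each tested gene of the 10 and of the 6 related lists; filled points passed at an adjusted p under 0.05, red bars are list medians and the dashed line is the median of all tested genes. Every list median lies left of the dashed line at -0.0095, from -0.66 for the inducible genes to -0.15 for the other HSP70 superfamily.

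The RNA of the heat shock factor itself did not pass. Hsf1 averaged 39.6 ± 1.78 CPM in the AAV2-GFP mice and 40.8 ± 5.79 CPM in the AAV206-GFP mice (SD, n = 5), with a log2 fold change of 0.05 and an interval of -0.14 to 0.24 (edgeR adjusted p = 0.771). HSF1 is regulated mainly as a protein, which RNA levels do not show. Of 4 tested genes of this list Hsbp1, which encodes a small HSF1-binding protein, passed at -0.28 (edgeR adjusted p = 0.0192), in 8 of the 10 leave-one-out fits.

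Several measures moved with the fall of the heat shock genes, and their part in it was not tested. The cold-inducible RNA-binding protein genes went the other way. Cirbp ranged over 118 to 126 CPM in the AAV2-GFP mice and over 197 to 266 CPM in the AAV206-GFP mice, a log2 fold change of 0.82 (edgeR adjusted p = 1.38e-05), and Rbm3 at 70.2 to 93.2 and 139.9 to 160.0 CPM, a log2 fold change of 0.80 (edgeR adjusted p = 1.16e-05). Over the 10 libraries Pearson's r of Cirbp with the 6 genes that fell lay between -0.97 (Hsph1) and -0.85 (Hspa1a). For Rbm3 it lay between -0.94 (Hspa8) and -0.80 (Hspa1a). With the group means taken out the 2 genes differed in sign: r of Cirbp lay between -0.71 (Hsph1) and -0.0064 (Hspa1a), and r of Rbm3 between 0.19 (Hspa4) and 0.38 (Hspa1a). These values are a description over libraries that share their scaling. Of 9 tested immediate early genes, which respond within minutes to handling of tissue, Jun and Atf3 fell and 7 did not pass, and the list of 10 summed to 306 to 346 CPM in the AAV2-GFP mice and 231 to 324 CPM in the others.

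Interferon-stimulated genes set 2 of the AAV2-GFP mice apart. The 10 listed summed to 75.3 to 501 CPM with AAV2-GFP, highest in replicates 1 and 4, and to 74.7 to 94.8 CPM with AAV206-GFP, and 10 microglia genes, highest in AAV2-GFP replicate 1, summed to 26.6 to 231 and 22.3 to 30.6 CPM. Every marker of both lists had more than 3 counts in at least 1 library. In AAV2-GFP replicates 1 and 4 Hspa8 was at 1355 and 1455 CPM, the first below and the other within the 1375 to 1518 CPM of the remaining 3 mice. Without these 2 libraries 5 of the 10 genes passed as lower, with Hspa4 lost, and 985 genes passed in all. Erythrocyte genes summed to 67.8 to 85.8 CPM with AAV2-GFP and 101 to 319 CPM with AAV206-GFP, and replication-dependent histone genes took 0.0703% to 0.108% and 0.0343% to 0.0503% of all counts. Mitochondrially encoded genes took 3.61% to 3.89% and 3.73% to 4.16%.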

How the data were processed

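Retinal RNA in 10 libraries was analysed, 5 per vector, with groups and replicate numbers taken from the sample descriptions. The sample titles name a retina and a replicate number, and each library was taken as a separate mouse. The deposited table holds estimated counts per Ensembl gene, not scaled between libraries. STAR 2.7.10b, RSEM 1.3.1 and the build mm10 are named in the submitters' processing notes. The annotation release and the strand setting were not given in the sources used here. Of all values 5.95% had decimals, and counts were rounded before testing, since the planned test takes whole numbers. Symbols and coordinates came from GENCODE M21 (GRCm38), which named 98.4% of the tested genes, and promoters from RefSeq.

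Genes were kept by filterByExpr (minimum count 10), scaled by trimmed mean of M values (TMM) and tested with the quasi-likelihood F test of edgeR 4.0.16 in R 4.3.3 on all 10 libraries. Benjamini-Hochberg adjustment covered 15539 genes, with a threshold of 0.05. CPM values use TMM-adjusted library sizes, and 3 counts correspond to 0.232 to 0.274 CPM, a limit that covers counting error only. A standard error is the absolute log2 fold change over the square root of F, and 95% intervals use the moderated degrees of freedom.

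The genes and all lists were chosen with earlier results of these data known. Named are all 10 genes, the 2 smallest p-values among passing genes of each related list, Hspa1l, Cryab, Hsf1, Cirbp, Rbm3, and the 5 genes most like the inducible ones. Sugt1, Atf3, Rgr, Gm15459, Gm26825, Gm9817 and Hsp25-ps1 were named after their values were seen. Alternatives covered scaling, filter, DESeq2 1.42.0, limma-voom (limma 3.58.1), robust dispersions, unrounded counts, the summed Hspa1 pair, the replicate number as a block and leaving out each library. The fit was tested on simulated data.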

Additional observations from a re-analysis of the deposited data

Results flagged for a closer look

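Among 22 group results examined for 1 mouse far from the other 4 of its group, 1 was found, where 1.1 would be reached by chance. In AAV2-GFP replicate 5, Hspa1b took 48.6% of the summed Hspa1a and Hspa1b counts, against 45.9% to 46.3% in the other mice of that group. Neither gene's own level stood apart in this mouse, at 139 CPM for Hspa1a and 131 CPM for Hspa1b.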

How the results depend on the processing

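The count of 6 lower genes among the 10 held whichever of the 10 libraries was omitted, and under other scaling, filters, tests and unrounded counts. It was 5 where Hspa1a and Hspa1b were summed into 1, alone or with the other genes that share their sequence, and without AAV2-GFP replicates 1 and 4, with Hspa4 lost. The last 2 of these were chosen after the data were seen. The count over all genes moved more, from 1747 to 985 without those 2 libraries and to between 991 and 1912 over the fits that left out 1 library, with 991 without AAV2-GFP replicate 4, 1074 without AAV206-GFP replicate 2 and 1056 without AAV206-GFP replicate 4. DESeq2 gave 2254. The related chaperone genes that passed numbered 16 to 25 over the fits that left out 1 library and 15 to 26 over the others, against 22. The share of Hspa1b in the pair differed by -3.02 to -1.54 percentage points over the fits that left out 1 library, and it passed without AAV206-GFP replicate 4 (exact permutation p = 0.00794). Hsf1 changed sign without AAV206-GFP replicate 1 (-0.0050) and without AAV206-GFP replicate 5 (-0.0028), within a range of -0.0050 to 0.11.

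Same-numbered mice of the 2 groups did not deviate together across all genes (r from -0.052 to 0.040, and 0 of 5 matched best with their own number). A pairing that acts on few genes would not be seen in this r. With the replicate block 1085 genes passed, with 6 of the 10 genes and 19 related genes among them. Depth limits Hspb1, Hspb8, Hspa2 and Bag3, each at no more than 124 counts per library.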

Other observations

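Other cell types of the retina were read from marker lists. The Müller glia markers summed to 3476 to 4332 CPM with AAV2-GFP and 3159 to 3830 CPM with AAV206-GFP, the gliosis genes to 143 to 331 and 154 to 205 CPM, the 4 astrocyte markers to 38.6 to 92.2 and 23.7 to 86.9 CPM, and the mural markers to 105 to 118 and 92.9 to 110 CPM. Of 7 tested markers of the retinal pigment epithelium 1, Rgr, fell in edgeR's test and 6 did not pass. The list of 8 had sums of 16.5 to 45.4 and 18.7 to 27.4 CPM.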
